A study of Sus scrofa with 6 samples.

Results

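The ZNF genes are the genes whose symbol is ZNF followed by a number and at most 1 letter. Those described here are the 186 that the deposited expression table types as protein-coding and lists at a mean of at least 1 FPKM (fragments per unit of gene length, scaled to the library's total) across the 6 libraries. The table has 29884 rows, of which 258 carry such a symbol and 256 of those are protein-coding. The members were chosen by symbol and selected on mean FPKM in all 6 libraries, so their level is a description. The rule did not use the difference between treated and control libraries. It was set with earlier results of these data known, so the set is not independent of them. The libraries came from cultures of Sus scrofa (pig) testis cells that the labels call porcine primitive spermatogonia, early germ cells of the male line. In the RA group, 3 libraries came from cells given 2 umol/L all-trans-retinoic acid. In the control group, 3 libraries came from cells given 0.1% ethanol in its place. The labels give no strain or age. Whether the 3 libraries of each group were made from different animals or cultures is not stated either, so every p-value reflects library-to-library spread, which may be technical.

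Most ZNF proteins are transcription factors built from repeated C2H2 zinc fingers, short loops that each hold a zinc ion between cysteines and histidines and read a few bases of DNA. Many of them in mammals also carry a KRAB domain, which brings in the corepressor TRIM28 (KAP1) and with it the histone methyltransferase SETDB1, and these KRAB zinc finger proteins are best known for silencing transposable elements and for protecting imprinted genes in germ cells and embryos. The genes often lie in tandem clusters that arose by duplication. The symbol is wider than that class: ZNF598 is a ubiquitin ligase of stalled ribosomes, and ZNF622 acts in maturation of the large ribosomal subunit.

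The read totals behind the FPKM values ran from 63836470 to 87520891 in RA and from 62084199 to 79752197 in control. RA replicate 2 stood apart: it correlated at a mean of 0.9837 with its group, where the other RA libraries reached 0.9890 and 0.9908 and the control libraries at least 0.9943 (across genes, which are not independent replicates). CYP26A1, the enzyme that degrades retinoic acid and a standard target of it, had 11.7, 13.5 and 9.65 FPKM in RA and 0.149, 0.223 and 0.0595 FPKM in control. Defining markers of germ cells were present, as were those of other testis cells. Summed FPKM of 10 germ cell markers was 202 to 218 in RA and 248 to 256 in control. Without UCHL1, the most abundant, it was 103 to 110 in RA and 129 to 131 in control. By the test described next, 1 of the 10, STRA8, was higher and 4 were lower. Of 8 markers of Sertoli cells, the supporting cells of the tubule, 1 was higher and 5 were lower. Their summed FPKM was 10145 to 10911 in RA and 10372 to 10913 in control, most of it CLU, and that of the other 7 was 772 to 855 in RA and 1364 to 1505 in control. Summed FPKM of 5 peritubular myoid cell markers was 1517 to 1808 in RA and 428 to 504 in control, and all 5 were higher. Summed FPKM of 5 markers of Leydig cells, which make testosterone, was 215 to 232 in RA and 182 to 198 in control. Most of that sum was CYP11A1, and that of the other 4 was 58.5 to 68.3 in RA and 78.5 to 91.8 in control. CYP11A1 was higher and HSD3B1 lower, and CYP17A1 was too low to be tested. None of 4 macrophage and 3 endothelial markers passed, none of the listed markers was at 0, and the part of cell makeup in the ZNF values was not tested. In bulk RNA, fewer cells of a type and less RNA per cell cannot be told apart.

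RA was compared with control to ask which ZNF genes respond to retinoic acid in these cultures. Of the 186 ZNF genes, 28 (15.1%) were higher and 7 (3.76%) were lower in RA, and 151 did not pass (limma on log2(FPKM + 1), two-sided, Benjamini-Hochberg adjusted p under 0.05 over all 14567 genes tested, those averaging 0.5 FPKM or more). Over all genes tested, 13.9% were higher and 12% were lower, 25.9% in all. The share of ZNF genes that rose was thus near that of all genes in this fit, and the share that fell was below it. After a correction of each library for gene length, 39 of the 186 were higher and 6 lower. Of all genes tested, 14.6% were then higher and 12.2% lower. Without that correction, the median log2 change was 0.040 over the ZNF genes and -0.014 over all genes tested. The middle 50% of ZNF genes lay between -0.16 and 0.23. The largest fall had a log2 change of -1.07 and the largest rise one of 0.77. An absolute log2 change of at least 0.5 was reached by 9.68% of the ZNF genes and by 15.7% of the other protein-coding genes tested. Log2 changes given by limma are on the log2(FPKM + 1) scale, and on it the change of a gene at a low level comes out too small. Those of edgeR and of the authors are named as such.

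In ZNF genes whose groups did not overlap, all 3 RA libraries lay above all 3 control libraries in 52 (28.0%) and below them in 21 (11.3%). Over all genes tested these shares were 23.9% and 24.0%. All 28 rises and all 7 falls were among the genes whose groups did not overlap. The counts are given as measured, with no test of the list.

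The largest fall among the ZNF genes was that of ZNF521, a cofactor with many fingers that binds early B-cell factors and holds progenitor cells of blood and other tissues in an immature state. ZNF521 had 8.80, 9.17 and 8.86 FPKM in RA and 19.8, 19.7 and 20.2 FPKM in control. Every RA library was below every control library by a wide margin, with little spread inside either group. The mean was 8.94 ± 0.202 FPKM in RA and 19.9 ± 0.263 FPKM in control (SD, n = 3 libraries each, as for all such means here), with control 2.22 times RA. Its log2 change was -1.07 ± 0.065 SE (limma adjusted p = 3.94e-05). ZNF521 lies on chromosome 6, 109833610 to 110122920, minus strand, in the coordinates of the deposited table. On the log2(FPKM + 1) scale it was the only ZNF gene with an absolute change of at least 1. By mean FPKM, control was also 2.14 times RA for ZNF182 and 2.02 times RA for ZNF704. RA was 2.18 times control for ZNF503.

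ZNF608 and ZNF609, which encode a pair of related proteins with a single zinc finger, both fell. ZNF608 had 14.0, 12.7 and 14.6 FPKM in RA and 23.8, 24.8 and 23.1 FPKM in control (log2 change -0.76 ± 0.075 SE, limma adjusted p = 0.000390). ZNF609 had 13.4, 14.3 and 14.3 FPKM in RA and 17.7, 19.0 and 18.7 FPKM in control (log2 change -0.38 ± 0.067 SE, limma adjusted p = 0.00596). Neither gene's groups overlapped. ZNF609 has one of the longer models, 11438 bases, and its limma adjusted p was 0.351 after a correction of each library for gene length, with a log2 change of -0.14.

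ZNF516, which in mouse acts in brown fat and partners a corepressor complex, and ZNF385D, of the ZNF385 family, also fell. ZNF516 had 14.2, 12.6 and 14.8 FPKM in RA and 19.6, 20.1 and 19.0 FPKM in control (log2 change -0.47 ± 0.079 SE, limma adjusted p = 0.00454). ZNF385D had 3.43, 3.08 and 3.84 FPKM in RA and 5.63, 7.08 and 6.93 FPKM in control (log2 change -0.76 ± 0.116 SE, limma adjusted p = 0.00295). In both genes the lowest RA library was RA replicate 2. ZNF521, ZNF385D, ZNF608, ZNF516 and ZNF609 kept their calls when any 1 library was left out.

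The remaining falls were at low levels. ZNF704 had 1.28, 0.745 and 1.39 FPKM in RA and 2.01, 2.43 and 2.46 FPKM in control (log2 change -0.64, limma adjusted p = 0.0138). ZNF182, on the X chromosome, had 1.06, 0.572 and 1.13 FPKM in RA and 1.63, 2.32 and 1.96 FPKM in control (log2 change -0.64, limma adjusted p = 0.0170). In both, RA replicate 2 was well below the other RA libraries, and the groups were nonetheless apart. Limma adjusted p-values of ZNF704 were 0.0613 without control replicate 2 and 0.0576 without control replicate 3, and those of ZNF182 were 0.0724 and 0.0595.

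**Figure D1:**
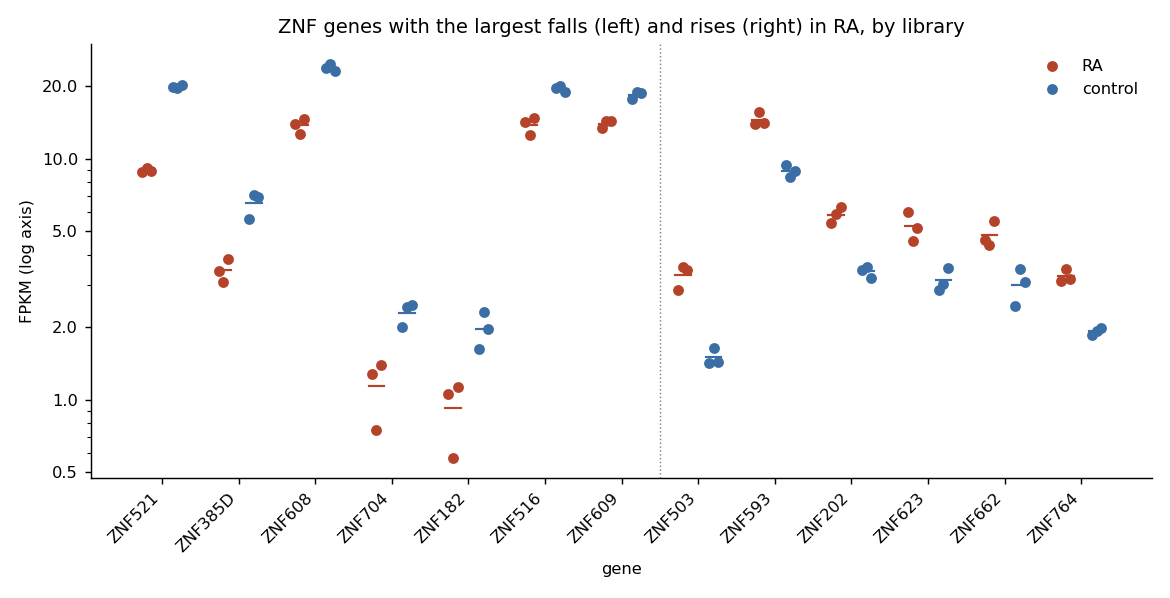
FPKM on a log axis of the 7 ZNF genes that fell (left of the dotted line) and the 6 with the largest rise (right), with RA libraries at left and control libraries at right in each gene and a bar at each mean. ZNF521 stands at about 9 FPKM in RA and about 20 in control, and no gene shown has overlapping groups.

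The largest rise was that of ZNF503, a transcriptional repressor of the NET family that acts in development of the eye and forebrain. ZNF503 had 2.84, 3.55 and 3.46 FPKM in RA and 1.42, 1.64 and 1.44 FPKM in control. The lowest RA library was well above the highest control library. RA was 2.18 times control by mean FPKM, and the log2 change was 0.77 ± 0.105 SE (limma adjusted p = 0.00182). On recovered reads, edgeR gave a log2 change of 1.12 for ZNF503. ZNF503 lies on chromosome 14, 77924391 to 77928754, minus strand.

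ZNF593, whose yeast counterpart is a factor of ribosome export from the nucleus, and ZNF202, a repressor of genes of lipid metabolism, rose next. ZNF593 had 13.9, 15.6 and 14.1 FPKM in RA and 9.45, 8.42 and 8.92 FPKM in control (log2 change 0.64 ± 0.081 SE, limma adjusted p = 0.00123). ZNF202 had 5.40, 5.87 and 6.31 FPKM in RA and 3.46, 3.55 and 3.21 FPKM in control (log2 change 0.64 ± 0.094 SE, limma adjusted p = 0.00251). Both were above control in every RA library, by 1.63 times for ZNF593 and 1.72 times for ZNF202.

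ZNF623 had 6.01, 4.55 and 5.16 FPKM in RA and 2.86, 3.03 and 3.53 FPKM in control (limma adjusted p = 0.00982). ZNF662 had 4.58, 4.38 and 5.53 FPKM in RA and 2.44, 3.49 and 3.07 FPKM in control (limma adjusted p = 0.0198). ZNF764 had 3.10, 3.50 and 3.16 FPKM in RA and 1.86, 1.93 and 1.98 FPKM in control (limma adjusted p = 0.00439). These 3 genes had log2 changes of 0.54 to 0.59, and their groups did not overlap. Limma adjusted p-values of ZNF662 were 0.0511 with RA replicate 3 left out, and 0.0644 and 0.0619 with control replicate 1 or 3 left out.

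The other 22 rises had log2 changes between 0.26 and 0.53. Limma adjusted p-values of the 28 rises ran from 0.00123 to 0.0477. The following 2 were chosen after their values were seen. ZNF598, the ubiquitin ligase that marks collided ribosomes, had 15.0, 17.3 and 15.5 FPKM in RA and 12.4, 11.9 and 11.6 FPKM in control (log2 change 0.38, limma adjusted p = 0.0102). ZNF410, a factor that activates the gene of the chromatin remodeler CHD4, had 4.91, 5.07 and 4.87 FPKM in RA and 3.76, 4.01 and 3.64 FPKM in control (log2 change 0.31, limma adjusted p = 0.0335). CHD4 itself was at 58.6 ± 3.74 FPKM in RA and 59.7 ± 1.14 FPKM in control (log2 change -0.03, limma adjusted p = 0.784). ZNF410 lost its call in each fit without 1 library except that without RA replicate 2, with limma adjusted p-values of 0.0665 to 0.119, while ZNF598 kept it in all 6.

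Of the 28 rises, 7 held in all 6 fits without 1 library: ZNF503, ZNF593, ZNF202, ZNF623, ZNF764, ZNF598 and ZNF48. With RA replicate 1, 2 or 3 left out, 12, 31 and 24 ZNF genes were higher in RA, and with control replicate 1, 2 or 3 left out, 11, 10 and 13 were. The number lower was between 5 and 10 in these 6 fits. The shares of all genes called moved too, between 8.25% and 15.5% higher and between 6.90% and 15.5% lower, with the lowest of each without control replicate 2 and the highest without RA replicate 2.

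The 6 ZNF genes with the highest mean levels did not pass the test. ZNF358 had 53.3, 61.0 and 50.0 FPKM in RA and 50.6, 45.1 and 48.4 FPKM in control (limma adjusted p = 0.155). ZNF622 had 28.5, 33.0 and 30.1 FPKM in RA and 28.1, 28.0 and 29.6 FPKM in control (limma adjusted p = 0.364). Groups overlapped in both, and RA replicate 2 was the highest library of each. ZNF384, ZNF217, an oncogene in several carcinomas, and ZNF664 had log2 changes of 0.08, -0.20 and 0.01 with overlapping groups, and limma adjusted p-values of 0.486, 0.212 and 0.958. ZNF207, which loads BUB3 on kinetochores and helps assemble the spindle, had 20.0, 20.3 and 20.3 FPKM in RA and 18.0, 18.3 and 18.8 FPKM in control. Its groups were apart, with a log2 change of 0.13 (limma adjusted p = 0.146). ZNF207 has a model of 11035 bases, and after the correction for gene length it was called higher, with a log2 change of 0.36 (limma adjusted p = 0.0303).

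A gene that did not pass is not shown to be unchanged. Of the 151 ZNF genes without a call, 109 had a 95% confidence interval of the log2 change that lay within 0.5 of 0 on both sides. The half-width of that interval had a median of 0.24 over the ZNF genes. It was 0.20 for those with a mean of at least 10 FPKM and 0.27 for those under 2 FPKM. These intervals are on the log2(FPKM + 1) scale, which makes changes and widths of genes at low levels too small. A log2 change of more than 0.5 in FPKM itself is thus not excluded for all 109. ZNF423, which was reported as a partner of retinoic acid receptors, was at 4.64 ± 0.669 FPKM in RA and 4.28 ± 0.531 FPKM in control (log2 change 0.09, limma adjusted p = 0.608). ZNF445, a KRAB protein that protects imprinted loci, was at 3.71 ± 0.785 FPKM in RA and 3.95 ± 0.297 FPKM in control (log2 change -0.08, limma adjusted p = 0.681). Both were chosen after their values were seen.

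Levels of the ZNF genes were low. Their mean across libraries reached 51.4 FPKM with a median of 3.99, against a median of 6.69 for the other protein-coding genes tested, and 112 of the 186 were under 5 FPKM. Each was still counted with at least 105 reads in every library, with a median of 1254. Just inside the limit of 1 FPKM were ZNF674 (1.004), ZNF484 (1.010) and ZNF713 (1.019), and just outside were ZNF33B (0.9971), ZNF570 (0.9590) and ZNF81 (0.9527). Of 44 ZNF genes between 1 and 2 FPKM, 1 rose and 2 fell, where 7.13% of the other protein-coding genes of that level rose and 9.17% fell. Of 68 between 2 and 5 FPKM, 12 rose and 1 fell, beside 8.45% and 11.2% of the other genes. Of 41 between 5 and 10 FPKM, 9 rose and 0 fell, beside 13.3% and 12%. Of 33 at 10 FPKM or more, 6 rose and 4 fell, beside 22.6% and 16.3%.

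The change in RA followed gene length across the table. Spearman's rho between the log2 change and the listed gene length was -0.33 over the ZNF genes and -0.34 over the other protein-coding genes (a description across genes, which share libraries). Without RA replicate 2 these values were -0.21 and -0.22. ZNF genes were longer than the rest, with a median of 4328 bases against 3314. The 28 genes that rose had a median length of 3506 bases and the 7 that fell one of 5350 bases.

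Set against protein-coding genes of like length, a smaller share of the ZNF genes was lower. The protein-coding genes tested were divided by length into 10 classes of equal size, and the shares of the other genes were weighted to the classes of the ZNF genes. Of the ZNF genes 3.76% were lower, where the weighted share of other genes was 14.1%. Of the ZNF genes 15.1% were higher, where the weighted share was 11.3%. The mean log2 change was 0.028 for the ZNF genes and -0.079 for the other genes so weighted. With classes of length and of mean level together, the weighted shares were 12.2% lower and 9.63% higher. These are descriptions, and no test was made of the list.

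The lower share of falls was seen with each library left out, but the higher share of rises was not. Without 1 library, 2.69% to 5.38% of the ZNF genes were lower, where other genes of like length gave 7.82% to 17.8%. Without RA replicate 1, control replicate 1 or control replicate 2, the share of ZNF genes that rose (6.45%, 5.91% and 5.38%) was below that of other genes of like length (7.77%, 7.37% and 6.82%). It was above theirs without RA replicate 2 (16.7% against 13.1%), without RA replicate 3 (12.9% against 9.93%) and, barely, without control replicate 3 (6.99% against 6.91%).

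The same genes were also divided by length into 5 classes of equal size, which are used from here on. In the class from 2765 to 4019 bases, 12 of 49 ZNF genes rose and 1 fell, with a median log2 change of 0.130. Of the other genes of that length 13.2% rose and 13.4% fell, with a median of -0.003. In the class from 4019 to 6046 bases, 7 of 50 rose and 3 fell, beside 9.53% and 15.6% of the other genes, with a median of -0.021 against -0.088. In the longest class, 3 of 51 rose and 3 fell, beside 5.74% and 16.1%, with a median of -0.083 against -0.178. Only 2 ZNF genes were in the shortest class, and in the class above it 6 of 34 rose and 0 fell, beside 18.2% and 10.7%.

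**Figure D2:**
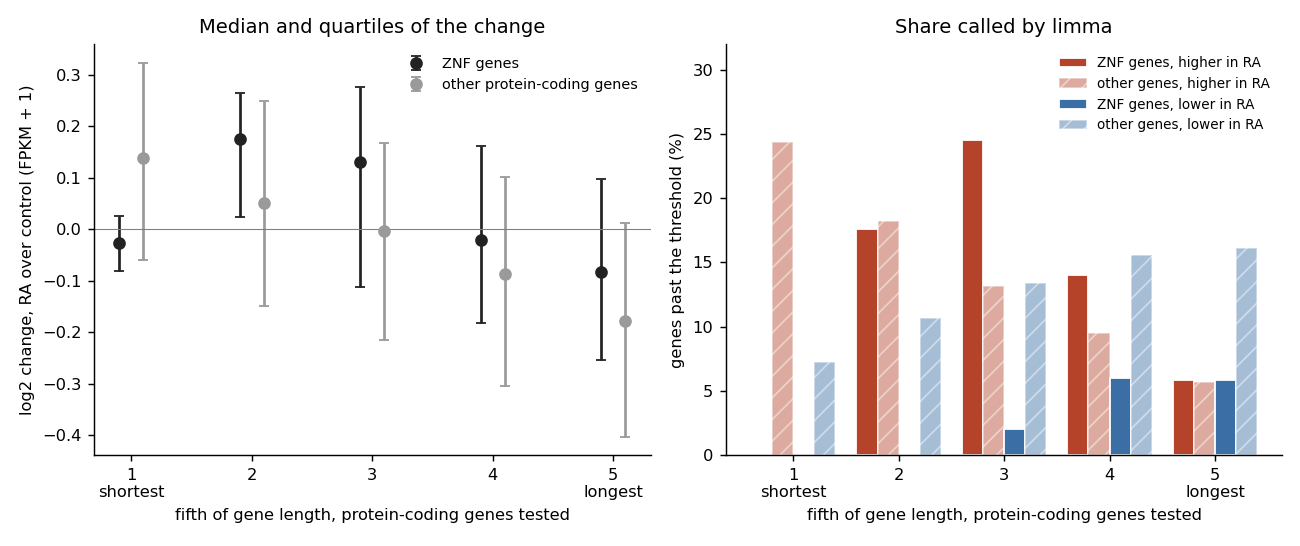
Left, median and quartiles of the log2 change of RA over control in 5 classes of gene length, for ZNF genes (black) and other protein-coding genes (grey). Right, the percentage of each set that limma called higher or lower. The ZNF medians lie above those of the other genes in the 4 longer classes, and the shortest class holds 2 ZNF genes.

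The ZNF genes were also followed library by library. The median difference of the ZNF genes from the control mean, on the log2 scale, was 0.062, 0.063 and 0.083 in RA replicates 1, 2 and 3 and -0.036, 0.030 and 0.009 in control replicates 1, 2 and 3. The medians of all 3 RA libraries were above those of all 3 control libraries. The quartiles show a wider spread in RA replicate 2, from -0.380 to 0.305, than in RA replicate 1 (-0.080 to 0.234) or RA replicate 3 (-0.057 to 0.199). For other genes of like length the weighted medians were -0.048, -0.092 and -0.026 in RA and -0.026, 0.025 and 0.003 in control.

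**Figure D3:**
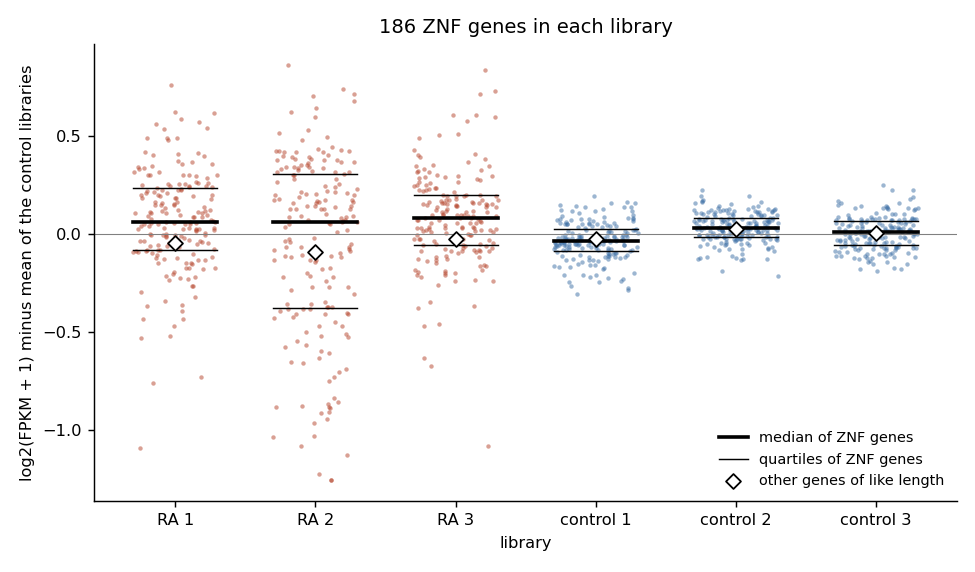
Difference of each ZNF gene from the mean of the control libraries on the log2(FPKM + 1) scale, 1 point a gene, for the 3 RA libraries at left and the 3 control libraries at right, with median and quartile lines. Diamonds give the medians of other protein-coding genes weighted to the same lengths. RA replicate 2 has a lower quartile of -0.380 and a median of 0.063.

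In RA replicate 2, 21 ZNF genes (11.3%) stood at or below 0.5 times the mean of RA replicates 1 and 3. No ZNF gene stood that far below the other libraries of its group in any of the other 5 libraries. Among other protein-coding genes tested, 7.38% did so in RA replicate 2, or 9.64% weighted to the lengths of the ZNF genes and 10.8% weighted to length and level. This property was chosen after the values were seen. In all 21 genes RA replicate 2 was below every control library. They had a median length of 5450 bases and a median level of 2.00 FPKM, against 4144 bases and 4.35 FPKM in the other 165 ZNF genes.

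ZNF354A is an example, with 5.80, 2.03 and 5.78 FPKM in RA and 4.35, 5.47 and 4.99 FPKM in control. RA replicates 1 and 3 were above all control libraries and RA replicate 2 was below them all. ZNF24, a SCAN-domain factor, had 5.78, 2.49 and 6.47 FPKM in RA and 5.57, 6.76 and 6.14 FPKM in control. ZNF148, also known as ZBP-89, had 3.07, 1.17 and 3.48 FPKM in RA and 3.71, 4.17 and 4.39 FPKM in control, so that here all RA libraries were below control. ZNF638 had 2.98, 1.15 and 3.58 FPKM in RA and 3.39, 4.38 and 4.74 FPKM in control. These 4 genes, and ZNF711 and ZNF667, were chosen after their values were seen.

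None of the 21 genes passed the test with all 6 libraries. Their median log2 change was -0.23 with all libraries and 0.00 without RA replicate 2, a shift upward that the choice of these genes fixes. Without that library ZNF711, a factor on the X chromosome, was called lower (log2 change -0.38, limma adjusted p = 0.0411, and 0.0759 with all libraries), as was ZNF667 (-0.35, 0.0324, and 0.0744 with all libraries), and no other of the 21 was called. Both were also called without RA replicate 3, with limma adjusted p-values of 0.0498 for ZNF711 and 0.0254 for ZNF667, and with array weights. Of the calls made with all libraries, 27 of 28 rises and 7 of 7 falls were also made without RA replicate 2.

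**Figure D4:**
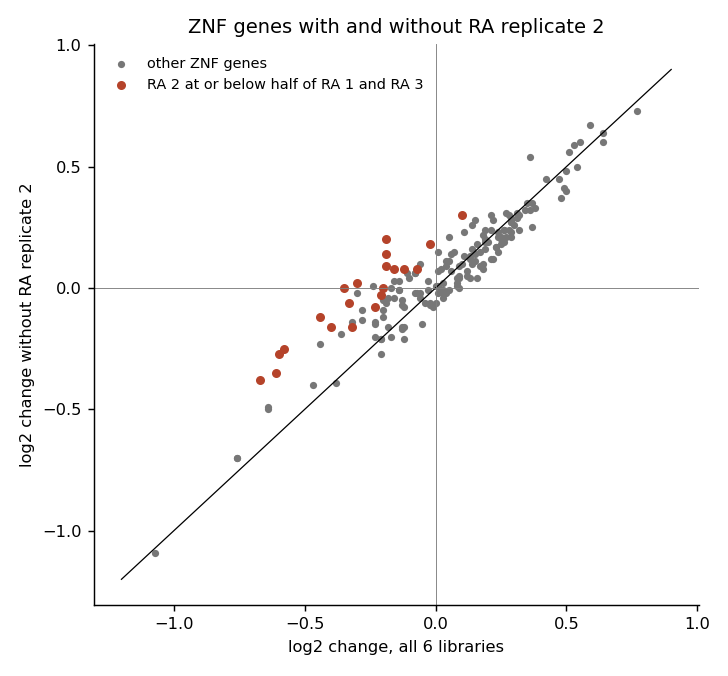
Log2 change of each ZNF gene with all 6 libraries (horizontal) and without RA replicate 2 (vertical), with the line of equal values. The 21 genes in which RA replicate 2 was at or below 0.5 times the mean of the other RA libraries (red) lie above the line, as their choice fixes, and ZNF521 lies at -1.07 and -1.09.

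ZNF genes lay on 18 chromosomes, with 48 on chromosome 6 and 30 on chromosome 3. On chromosome 6, 9 rose and 1 fell, beside 16.6% and 10.6% of the other protein-coding genes there. On chromosome 3, 6 rose and 0 fell, beside 16.7% and 10.3%, with a median log2 change of 0.16 against 0.04 for the other genes. On chromosome 18, 3 of 8 rose and 0 fell, beside 10.9% and 13.9%, with a median of 0.28 against -0.08. On chromosome 1, 0 of 10 rose and 2 fell, beside 9.05% and 15.5% (median -0.21 against -0.11). On chromosome X, 0 of 8 rose and 1 fell, beside 8.30% and 16.0% (median -0.23 against -0.10). ZNF genes of chromosome 1 had a median length of 7912 bases and those of chromosome 18 one of 3759 bases.

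By position, 59 ZNF genes formed 11 clusters of at least 3 members with starts no more than 500 kb apart. Of these 59, 13 (22.0%) rose and 0 fell, with a median log2 change of 0.156 and a median length of 3913 bases. Of the 127 outside clusters, 15 (11.8%) rose and 7 (5.51%) fell, with a median of 0.011 and a median length of 4603 bases. All 7 falls were of genes outside clusters. The 87 other protein-coding genes tested inside the clusters had 16 (18.4%) higher and 0 lower.

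The cluster with the most members was on chromosome 3, from 16957875 to 17925593, with 10 ZNF genes. Genes named in the description of clusters, apart from ZNF764, were chosen after their values were seen. Of these ZNF764, ZNF48, ZNF689 and ZNF646 rose and 0 fell, 9 of 10 had a log2 change above 0, and the median was 0.25. The 30 other genes inside it had 10 rises and 0 falls, with a median of 0.21. ZNF48 had 4.96, 4.94 and 4.53 FPKM in RA and 2.67, 3.28 and 3.42 FPKM in control (limma adjusted p = 0.0118). ZNF689 had 6.30, 6.80 and 6.24 FPKM in RA and 5.25, 4.75 and 4.45 FPKM in control (limma adjusted p = 0.0253), and it lost its call without RA replicate 1 or the second or the third control library (limma adjusted p of 0.0670, 0.0902 and 0.0985). ZNF646, at a limma adjusted p of 0.0411, lost it in each fit without 1 library except that without RA replicate 2, with 0.0617 to 0.132.

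On chromosome 18, the cluster from 55495145 to 55883476 had 6 ZNF genes, of which ZNF282, ZNF212 and ZNF777 rose, 5 of 6 had a log2 change above 0 and the median was 0.29. Each of these 3 lost its call in 3 to 5 of the 6 fits without 1 library. Both other genes there were without a call, with a median of -0.08. On chromosome 6, the cluster from 59619677 to 59741365 had 5 ZNF genes with a median of 0.26, of which ZNF784 (log2 change 0.50, limma adjusted p = 0.0153) and ZNF865 (log2 change 0.26, limma adjusted p = 0.0468) rose. The 4 other genes there had 0 calls, with a median of 0.11. ZNF784 lost its call without any 1 of the 3 control libraries, with limma adjusted p-values of 0.0553 to 0.0590. ZNF865 lost its call in 5 of the 6 fits without 1 library, with limma adjusted p-values of up to 0.133, and with the replicate block (limma adjusted p = 0.0973). A cluster on chromosome 6 from 60422389 to 60903923 had 6 ZNF genes, 0 calls and a median of -0.01. The 5 other genes in it had 0 calls and a median of -0.11.

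**Figure D5:**
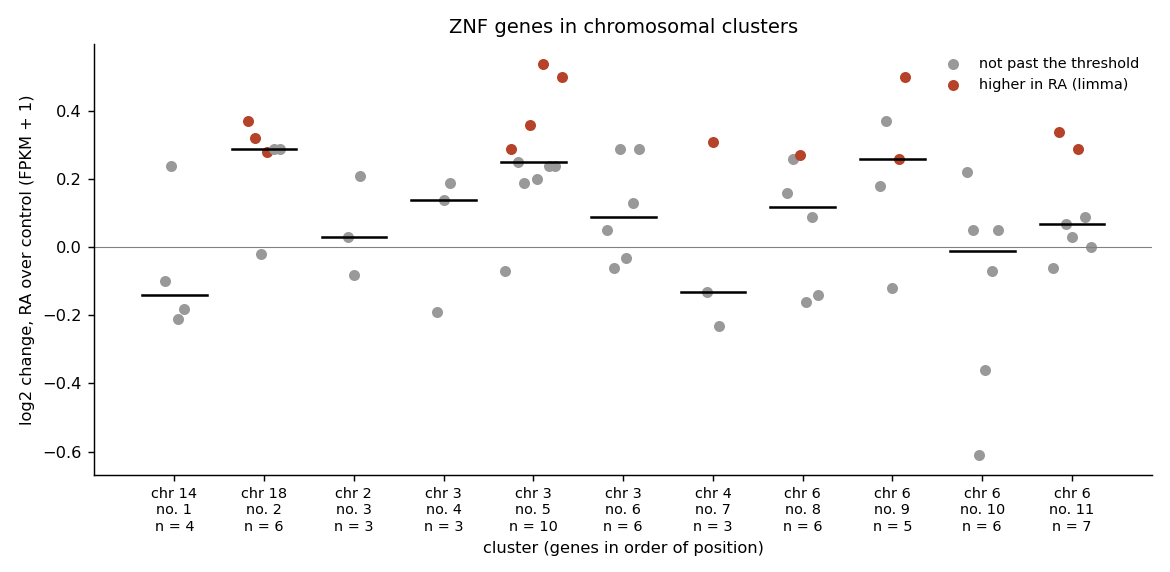
Log2 change of RA over control of the 59 ZNF genes in 11 chromosomal clusters, in order of position within each, with a line at each cluster median. Red points are the 13 genes that limma called higher. Cluster 5 on chromosome 3 has 9 of 10 genes above 0, and no gene in any cluster was called lower.

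Zinc finger genes outside the ZNF set of 186 were counted in the same fit, in which 13.9% of all genes were higher and 12% lower. Of 70 protein-coding ZNF genes with a mean under 1 FPKM, 42 entered the test, of which 1 rose and 2 fell, with a median log2 change of -0.093. Of 44 rows with a LOC name whose human match is a ZNF gene, 25 entered the test at a median of 1.02 FPKM, and 0 passed, with a median of -0.114. Of 15 tested ZSCAN and ZKSCAN genes, whose proteins join C2H2 fingers to a SCAN domain, 0 passed (median 0.019). Of 40 ZBTB genes, whose proteins join fingers to a BTB domain, 3 rose and 3 fell (median -0.081). Of 10 ZFP genes 1 rose and 2 fell (median -0.219). Of 22 KLF and SP genes, which have a short array of fingers that bind GC-rich sites, 2 rose (9.09%) and 7 fell (31.8%), with a median of -0.343. Levels and lengths differ between these sets, and no difference between them was tested.

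Of 40 genes listed for the corepressor that KRAB zinc finger proteins recruit, 39 were found and all were tested. Of these 5 (12.8%) rose and 4 (10.3%) fell, with a median log2 change of -0.048, near the shares over all genes of 13.9% and 12%. TRIM28, the scaffold of the complex, had 127, 140 and 118 FPKM in RA and 107, 103 and 105 FPKM in control (log2 change 0.28 ± 0.074 SE, limma adjusted p = 0.0278). All RA libraries were above control, but the call was lost in 4 of the 6 fits without 1 library, with limma adjusted p-values of 0.0722 without RA replicate 1 and 0.0683, 0.102 and 0.0893 without control replicates 1, 2 and 3. SETDB1, the H3K9 methyltransferase, had 16.4, 18.0 and 17.5 FPKM in RA and 18.1, 19.9 and 19.6 FPKM in control (log2 change -0.14, limma adjusted p = 0.171).

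In that list, only RBBP7 and HDAC1 were called lower in every fit. RBBP7, a histone-binding subunit of deacetylase complexes, had 44.3, 42.8 and 43.1 FPKM in RA and 61.3, 58.8 and 58.0 FPKM in control (log2 change -0.44 ± 0.056 SE, limma adjusted p = 0.00125). HDAC1, a deacetylase, had 47.8, 50.3 and 47.1 FPKM in RA and 57.9, 64.1 and 63.5 FPKM in control (log2 change -0.35 ± 0.065 SE, limma adjusted p = 0.00720). Both kept their calls with any 1 library left out. MBD2, which binds methylated DNA, and PPHLN1 of the HUSH complex also fell (log2 change -0.26 and -0.52). DAXX, a histone H3.3 chaperone, the phosphatase subunit PPP4C and MTA2 rose, with log2 changes of 0.30, 0.29 and 0.24. The calls of MBD2, PPHLN1, DAXX, PPP4C and MTA2 (limma adjusted p between 0.0226 and 0.0441) were each lost in at least 4 of the 6 fits without 1 library. After the length correction, MBD2 had a log2 change of -0.12 (limma adjusted p = 0.259) and PPP4C one of 0.18 (limma adjusted p = 0.0761). MTA2 and PPHLN1 were named after their values were seen.

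The authors' deposited table of called genes holds 45 of the 186 ZNF genes, 38 up (20.4%) and 7 down (3.76%). It lists 15.3% of the 14567 genes tested here as up and 12.5% as down, and 7.81% and 6.83% of all 29884 rows, many of which are below the level filter. Of the 35 ZNF genes called by limma, 34 are in the authors' deposited table, all with the same sign. In the authors' deposited table ZNF521 has a log2 fold change of -1.12 and an FDR of 8.47e-29, and ZNF503 has 1.16 and 5.68e-11. Members of the family share finger sequences, and how reads that match several genes were counted is not given in the sources used here, so values of ZNF genes with near-identical copies are uncertain.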

How the data were processed

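RNA sequencing of total RNA was analysed in 3 RA and 3 control libraries, grouped by title. The authors deposited FPKM values for all genes, and counts, a log2 fold change, a p-value and an FDR for the genes they called, per the file headers. Not given in the sources used here were aligner, counting tool, strand setting and genome build. Of the 186 ZNF genes, 183 had the same position in the RefSeq table of the pig assembly supplied, and 1 has no chromosome. Lengths are those of the deposited table. Functions of named genes are given by symbol. The authors list no human match for some of them, among them ZNF593, ZNF202 and ZNF148. No sequence of these genes was used, so finger numbers, KRAB domains and promoters were not analysed here.

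Values of genes averaging 0.5 FPKM or more were fitted as log2(FPKM + 1) by limma 3.58.1 (R 4.3.3) with group as the only term, a variance trend and Benjamini-Hochberg adjustment over all genes. FPKM is not a count, so edgeR 4.0.16 and DESeq2 1.42.0 were run only as alternatives, on reads recovered from FPKM, length and library totals (99.84% to 99.86% of non-zero values whole within 0.05; 14538 genes). edgeR called 1965 genes higher and 1685 lower. The fit was first run on simulated data with the same dispersion for every gene, no trend with length and no outlying library. That run thus says nothing about those features of these data. Exact permutation of 3 against 3 libraries cannot reach the threshold and was not run.

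The members and lists were chosen with earlier results of these data known. The rule for named genes took up to 12 falls and 6 rises of largest size among called ZNF genes with groups apart, the 6 of highest mean, 3 on either side of the 1 FPKM limit, and TRIM28, SETDB1 and up to 6 called genes of the corepressor list. Other names are marked as chosen after their values were seen. A gene that the rule takes is not reported here.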

Additional observations from a re-analysis of the deposited data

How the results depend on the processing

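All 7 falls and 27 of the 28 rises were also called by edgeR. The number of ZNF genes higher in RA was 28. It was 53 with array weights, 39 with the length correction, 39 with DESeq2 on recovered reads and 15 with the replicate block. It was 44 without RA replicate 2 after the length correction, and 10 to 31 without 1 library. The number lower was 7, and it was 22 with array weights and 5 to 10 without 1 library. With members from 2 FPKM, 27 of 142 were higher and 5 lower. With members from 0.5 FPKM, 29 of 228 were higher and 9 lower. The size of the set changed with the limit, so like counts are not like shares. The median log2 change of 0.040 became 0.103 with the length correction, 0.103 with that correction and the replicate block, 0.082 with quantile normalization, 0.094 without RA replicate 2 after the length correction, and 0.030 to 0.076 without 1 library; the cause was not tested beyond the construction of these settings. Over all genes, the 2019 higher and 1750 lower became 3410 and 3621 with array weights, and 1610 and 1405 with the replicate block. With DESeq2 they were 2274 and 2165, and with the length correction 2126 and 1772. Without RA replicate 2 after the length correction they were 2346 and 2265. Without 1 library they were 1202 to 2258 and 1005 to 2256.

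Of the corepressor list, the 5 higher became 8 with array weights, 2 without a variance trend, 2 with no filter on low values, 0 with the replicate block, 3 with the block and the length correction, and 0 to 6 without 1 library; the 4 lower became 11 with array weights and 2 to 4 without 1 library. The list's median of -0.048 became 0.068 with the length correction, 0.068 with that and the block, and 0.065 without RA replicate 2 after the length correction. Whether same-numbered libraries are pairs is not stated. Their deviations from the group means correlated at -0.214, -0.086 and 0.340, which cannot decide it with 3 libraries in each group. With the block, 15 of the 28 rises and all 7 falls were called. Of 1400 alternative values of single named genes, 116 lost a call, 23 gained one and 0 reversed. Counts by KRAB domain were not run, since no protein sequence was supplied. Low levels limit precision below 2 FPKM.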
